A study of Mus musculus with 16 samples.

Results

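Messenger RNA of 10 chemokines, Ccl2, Ccl3, Ccl4, Ccl5, Ccl7, Ccl12, Cxcl2, Cxcl10, Cxcl12 and Cxcl16, was followed across the brain cell classes of aged mouse neocortex, out of 30389 genes in the deposited Drop-seq tables. The genes were taken by symbol, and their levels in the cell classes and some of their genotype differences in these same libraries were known when the list was drawn up. Levels by class are therefore given as a description with no test, and the genotype tests, which were fitted over all genes, are not independent support for a member's change.

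The mice were 17 months old. THY-Tau22 mice were heterozygous for human 4-repeat tau with the G272V and P301S changes, driven by the neuronal Thy1.2 promoter on a C57Bl6/J background, and wild-type (WT) littermates were the controls. That promoter drives the transgene in neurons, whereas most chemokine mRNA here was in glial, macrophage and vascular cells. Fresh cortex was dissociated to single cells with a commercial adult brain kit, so the values describe cells after tissue dissociation. The comparisons used 14 libraries, from 3 male and 3 female WT and 3 male and 5 female THY-Tau22 mice, in which 24578 cells had 200 to 7000 detected genes. WT male 3 and THY-Tau22 male 4 were left out, because their tables shared 2952 of 3000 cell barcodes and hold 1 library under both genotypes (other pairs of tables shared 3 to 12).

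Chemokines are small secreted proteins that bind G protein-coupled receptors and direct the movement of leukocytes. Ccl3, Ccl4 and Ccl5 attract monocytes and T cells, Ccl2, Ccl7 and Ccl12 are monocyte attractants that act through Ccr2, and Cxcl2 attracts neutrophils through Cxcr2. Cxcl10 is an interferon-induced ligand of Cxcr3, Cxcl16 is a membrane-bound ligand of Cxcr6, and Cxcl12 is made constitutively by vascular cells and binds Cxcr4 and Ackr3. In the brain the inflammatory members are known mainly from microglia, the resident macrophages of the parenchyma, and from macrophages at the borders and vessels.

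In the mm10 (GRCm38) annotation Ccl2 (chr11:82035571-82037453), Ccl7 (chr11:82045712-82047525) and Ccl12 (chr11:82101845-82103400) lay close together on the plus strand, with gaps of 8.258 kb and 54.32 kb between them. Ccl5 (chr11:83525778-83530518) and Ccl3 (chr11:83647844-83649355) lay on the minus strand, and Ccl4 (chr11:83662584-83664683) on the plus strand 13.23 kb from Ccl3. Cxcl16 was at chr11:70453983-70459984 (minus strand), Cxcl2 at chr5:90903871-90905938 (plus), Cxcl10 at chr5:92346638-92348889 (minus) and Cxcl12 at chr6:117168535-117181367 (plus). Ccl2, Cxcl10 and Cxcl16 overlap a gene on the opposite strand (Gm17268, Art3 and Zmynd15), and whether reads were counted by strand is not given in the sources used here.

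RefSeq (GRCm38.p6) gave a promoter window, 250 bases before to 50 bases after the gene's start, for 5 of the 10 genes, Ccl3, Ccl12, Cxcl2, Cxcl10 and Cxcl12. The windows of Ccl12 and Cxcl2, the genes with the largest differences between male genotypes in microglia-like cells, are printed beside that of Cxcl10, whose difference did not pass the test. Capitals mark matches to the interferon-stimulated response element core (GAAA, any 2 bases, GAAA) or to the NF-kB consensus, searched on both strands, and each sequence is given 5′ to 3′ on the gene's strand.
Ccl12 (chr11:82101595-82101894, plus strand): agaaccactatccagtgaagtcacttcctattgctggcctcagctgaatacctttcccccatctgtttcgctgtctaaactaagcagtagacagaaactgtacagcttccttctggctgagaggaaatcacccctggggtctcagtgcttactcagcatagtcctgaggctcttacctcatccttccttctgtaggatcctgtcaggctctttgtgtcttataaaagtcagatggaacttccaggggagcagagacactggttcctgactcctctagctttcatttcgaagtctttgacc
Cxcl2 (chr5:90903649-90903948, plus strand): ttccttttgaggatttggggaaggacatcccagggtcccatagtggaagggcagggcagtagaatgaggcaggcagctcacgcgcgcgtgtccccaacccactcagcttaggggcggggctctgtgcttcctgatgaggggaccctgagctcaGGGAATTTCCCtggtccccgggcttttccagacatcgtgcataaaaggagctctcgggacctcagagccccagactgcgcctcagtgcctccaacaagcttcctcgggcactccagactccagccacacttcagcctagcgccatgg
Cxcl10 (chr5:92348840-92349139, minus strand): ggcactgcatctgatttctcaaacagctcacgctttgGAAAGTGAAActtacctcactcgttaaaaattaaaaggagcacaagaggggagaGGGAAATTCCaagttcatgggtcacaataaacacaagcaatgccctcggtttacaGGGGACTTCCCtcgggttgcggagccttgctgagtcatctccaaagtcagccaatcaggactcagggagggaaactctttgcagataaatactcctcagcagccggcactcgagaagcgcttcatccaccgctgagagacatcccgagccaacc

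Cxcl10 held 1 response element core, at -213 to -204 from the start, and NF-kB letters at -159 to -150 and in overlapping matches from -104 to -94. Cxcl2 held NF-kB letters in overlapping matches on both strands from -97 to -87. The windows of Ccl3, Ccl12 and Cxcl12 held neither motif, and Ccl12 held the TATA box letters TATAAA at -31 to -26 (not capitalised). Of 32851 RefSeq promoter windows of this length, 3.44% held the response element core, 8.46% the NF-kB consensus and 13.6% TATAAA. A match is a description of letters and not a measured site.

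Cells were grouped by clustering on genes other than chemokine ligands, and classes were named from fixed markers. The 14 libraries held 6972 microglia-like, 5364 oligodendrocyte-like, 4733 astrocyte-like, 3686 endothelial-like, 1227 neuron-like, 1106 oligodendrocyte precursor (OPC)-like, 673 mural-like, 375 macrophage-like and 127 ependymal-like cells, with 315 cells unnamed. A library held 1121 to 2526 cells and 755945 to 2089367 unique molecular identifiers (UMIs, 1 per captured mRNA) in them, at a median of 429 to 736.5 UMIs per cell, so most members were read as 0 in most cells. Levels are therefore given as CPM, the UMIs of a gene per 1000000 UMIs of the summed cells of a class in a library. At this depth a share of cells with a UMI was compared only after each cell was thinned to 400 UMIs, which left out shallower cells and kept 4930 microglia-like and 287 macrophage-like cells.

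Ccl3 and Ccl4 were the most abundant members in the microglia-like class. For Ccl4, 7748 of 9109 UMIs (85.1%) were in microglia-like cells, where its median over the 14 libraries was 1769 CPM (range 694 to 3631). For Ccl3, microglia-like cells held 3753 of 4495 UMIs (83.5%), at a median of 888 CPM (231 to 1738). Macrophage-like cells had like levels, with medians of 1719 CPM (406 to 3357) for Ccl4 and 803 CPM (287 to 2541) for Ccl3 over the 13 libraries with at least 10 such cells. After thinning, 34.6% of microglia-like and 31.4% of macrophage-like cells had a Ccl4 UMI (39.7% and 38.7% before thinning), against 1.17% of neuron-like cells. Pooled Ccl4 levels in astrocyte-, endothelial-, oligodendrocyte- and mural-like cells were 62.4, 61.0, 58.5 and 53.8 CPM.

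These low levels outside the myeloid classes were compared with microglia marker mRNA in the same cells. Per 100 UMIs of 9 microglia markers, Ccl4 had 11.7 UMIs in microglia-like cells and 9.20, 10.8, 9.88, 9.63, 12.9 and 8.89 in oligodendrocyte-, astrocyte-, endothelial-, neuron-, mural- and ependymal-like cells. Ccl3 had 5.68 in microglia-like cells and 4.07, 5.79, 5.14, 4.82, 6.29 and 5.56 in the same 6 classes. OPC-like cells were lower, at 4.66 for Ccl4 (18 UMIs) and 2.07 for Ccl3 (8 UMIs). Macrophage-like cells were higher, with 40.7 for Ccl4 and 25.5 for Ccl3. The part of free RNA or mixed droplets in these values was not tested.

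The Ccr2 ligands divided between the myeloid classes by member. Ccl7 was a macrophage-like transcript, with 268 of 320 UMIs (83.8%) in the 375 macrophage-like cells, a median of 990 CPM there (229 to 1766) and 6.47 CPM in microglia-like cells. Ccl12 was also higher in macrophage-like cells, with a median of 984 CPM (146 to 1689) against 117 CPM (33.1 to 340) in microglia-like cells, yet microglia-like cells, being far more numerous, held 626 of its 988 UMIs (63.4%). Ccl2 showed the same arrangement at a lower level, with 384 CPM (57.4 to 984) in macrophage-like and 49.2 CPM (9.05 to 138) in microglia-like cells. After thinning, 18.2% of macrophage-like cells had a Ccl7 UMI, 18.7% a Ccl12 UMI and 13.6% a Ccl2 UMI, against 0.164%, 4.33% and 2.03% of microglia-like cells. Ccl7 was not seen in any of 1227 neuron-like cells, which allows a share of up to 0.300% (exact 95% upper bound, counting error only).

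The CXC members other than Cxcl12 were sparse. Cxcl2 had 352 of 671 UMIs (52.5%) in macrophage-like cells, with a median of 1189 CPM there (495 to 2865) and 40.3 CPM (13.6 to 177) in microglia-like cells. After thinning, 20.3% of macrophage-like and 1.46% of microglia-like cells had a Cxcl2 UMI. Cxcl10 had 220 of 356 UMIs (61.8%) in microglia-like cells, at a median of 38.9 CPM (17.8 to 142), and reached 104 CPM (0 to 1126) in macrophage-like cells. Cxcl16 had 165 of 250 UMIs (66.0%) in microglia-like cells at 39.8 CPM (15.0 to 71.9), and 87.4 CPM (0 to 273) in macrophage-like cells. For both genes the ranges of the 2 classes over libraries overlapped.

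Cxcl12 had the opposite pattern to the inflammatory members. Endothelial-like cells held 8196 of its 10411 UMIs (78.7%), at a median of 3071 CPM (2309 to 3654), and mural-like cells, which wrap the vessels, held 1235 UMIs (11.9%) at 1579 CPM (1011 to 2789). After thinning, 60.1% of endothelial-like and 39.0% of mural-like cells had a Cxcl12 UMI. In macrophage-like cells 5 UMIs were found in all, and in microglia-like cells the pooled level was 40.7 CPM. Oligodendrocyte-like cells had 134 CPM, and 3.98% of them had a UMI after thinning, against 1.40% of astrocyte-like cells. Per 100 UMIs of endothelial markers, Cxcl12 had 16.7 UMIs in endothelial-like, 16.3 in microglia-like, 16.9 in astrocyte-like, 18.6 in neuron-like, 20.6 in oligodendrocyte-like, 13.3 in mural-like and 3.17 in macrophage-like cells. Mural-like cells also carried endothelial marker mRNA, with pooled Flt1 at 3621 and Cldn5 at 1266.5 CPM. In endothelial-like cells these were at 5827.5 and 2032 CPM. The part of endothelial RNA in the Cxcl12 levels of mural-like and other cells was not tested.

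**Figure D1:**
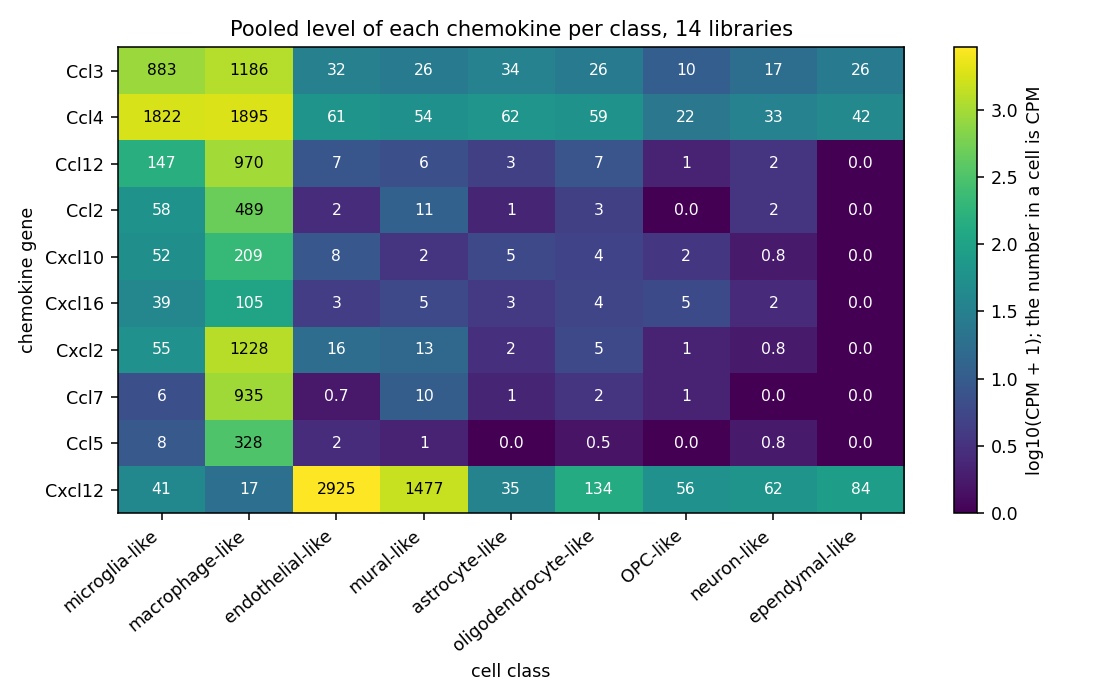
Heat map of pooled CPM (UMIs per 1000000 UMIs, colour on a log scale, summed over 14 libraries) for the 10 chemokines (rows) in the 9 named cell classes (columns). Every member other than Cxcl12 had its highest pooled level in macrophage-like cells, and Ccl3 and Ccl4 were high in both myeloid classes. Cxcl12 was highest in endothelial-like cells (2925 CPM) and then mural-like cells (1477 CPM).

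Ccl5 depended on few cells. Of its 139 UMIs, 80 were in 46 cells with at least 2 UMIs of T or NK cell markers, lymphocytes that are known to make Ccl5, and 19 of those cells had a Ccl5 UMI. Within the macrophage-like class, 23 such cells held 66 of 94 Ccl5 UMIs (4540 CPM). The 9 cells with 1 T or NK marker UMI had 957 CPM, and the 343 cells with none had 89.6 CPM. A single cell of THY-Tau22 female 4, with 33 Ccl5 UMIs and 27 T or NK marker UMIs, held 35.1% of the macrophage-like total. The 2 cells with the next most Ccl5 had 9 UMIs each, and their T or NK marker UMIs were 8 (WT female 2) and 0 (THY-Tau22 female 1). Most macrophage-like Ccl5 UMIs were thus in cells carrying T or NK markers, and the level of the class varied from 0 to 1893 CPM between libraries (median 115).

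Across the 9 classes, the gene whose log2(CPM + 1) profile was most like Ccl3 was Ccl4 (Pearson r = 0.998 over 9 classes, a description with no test), followed by Trem2, a microglial lipid receptor. Ccl12 was most like Ms4a6d (0.989), Ccl7 most like Cybb (0.99), a subunit of the phagocyte oxidase, and Ccl2 most like Lyz2 (0.984), the lysozyme of myeloid cells. Cxcl12 was most like Podxl (0.996), a sialomucin of vascular endothelium. Ccl5 was most like Lilrb4a (0.989), Cxcl10 like Bcl2a1a (0.981) and Cxcl16 like Ssr4 (0.988). These classes share libraries, so the 9 points are not independent.

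The cells of 1 class also differed among themselves. In microglia-like cells thinned to 400 UMIs, Ccl4 was found in 58.3% of cells with a Ccl3 UMI and in 27.9% of those without. It was found in 48.2% of cells with an Il1b UMI (a cytokine of activated microglia) and 33.6% of those without. In macrophage-like cells Ccl2, Ccl7 and Ccl12 were found together, Ccl7 in 57.8% of Ccl2-positive and 11.9% of Ccl2-negative cells and Ccl12 in 46.1% of Ccl7-positive and 12.6% of Ccl7-negative cells. Cxcl2 was found in 40.9% of Ccl7-positive and 15.7% of Ccl7-negative macrophage-like cells. Ccl4 did not follow this set there, being in 28.8% of Ccl7-positive and 32.0% of Ccl7-negative cells. These shares pool cells of 14 libraries and carry no test.

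Few UMIs were captured for several receptors of these ligands. Ccr2, which binds Ccl2, Ccl7 and Ccl12, had 98 UMIs in all and was highest in macrophage-like cells (133 CPM). Cxcr2, Cxcr3 and Cxcr6, the receptors of Cxcl2, Cxcl10 and Cxcl16, had 2, 1 and 18 UMIs in all 24578 cells. Of the Cxcl12 receptors, Cxcr4 had 43 UMIs and Ackr3 had 140, highest in mural-like cells (52.6 CPM). Among 28 other chemokine ligands, 25 were in the tables, and the most abundant were Cxcl14 in astrocyte-like (712 CPM), Pf4 and Ccl6 in macrophage-like (1189.9 and 771 CPM) and Cx3cl1 in neuron-like cells (255 CPM).

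The genotypes were compared within each sex by edgeR's quasi-likelihood test on UMIs summed per library and class, with Benjamini-Hochberg adjustment over all genes tested in that class. A gene was called at an adjusted p under 0.05 and a log2 fold change of at least 0.5. Each library was labelled as a separate sample, and p-values measure the spread between these libraries. In microglia-like cells 8 of the 10 chemokines passed the filter on low counts, which Ccl5 and Ccl7 did not.

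In males, 3 of the 8 chemokines tested in microglia-like cells were called higher in THY-Tau22, Ccl12, Cxcl2 and Ccl4, where 0.613% of the 5222 genes tested were called (32 genes, 29 of them higher, or 0.555%). All 8 had fold changes above 0, with a median of 1.27 on the log2 scale, beside 0.015 for all genes tested. Ccl3 (edgeR adjusted p = 0.0775), Ccl2 and Cxcl16 (0.223 each) did not pass. DESeq2 called Ccl12, Ccl3 and Ccl4 among 107 genes and gave no adjusted p for the other 5. In CPM, every THY-Tau22 male lay above every WT male for Ccl3, Ccl4, Ccl12, Cxcl2 and Cxcl16, which are 5 of the 8 chemokines tested, where 15.9% of the genes tested showed this separation. With the library that was deposited under both genotypes kept as a WT male, the 3 calls remained, and with it kept as a THY-Tau22 male 0 of the chemokines were called.

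Ccl12 had 59.8, 69.2 and 58.8 CPM in WT males 1, 2 and 4 and 340, 193 and 299.7 CPM in THY-Tau22 males 1, 2 and 3. The groups did not overlap, and the means were 62.6 ± 5.71 and 277 ± 75.8 CPM (SD, n = 3 each). The log2 fold change was 2.05 ± 0.40 (SE; edgeR adjusted p = 0.0189). The counts behind it were 13 to 28 UMIs in WT and 63 to 95 in THY-Tau22 males, and after thinning 2.04% and 8.42% of microglia-like cells had a Ccl12 UMI. The call was lost without WT male 1 (adjusted p = 0.183), WT male 4 (0.139), THY-Tau22 male 1 (0.120) or THY-Tau22 male 3 (0.0981), at log2 fold changes of 1.81 to 2.02.

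Cxcl2 had 25.6, 38.4 and 13.6 CPM in the WT males and 55.3, 113 and 177 CPM in the THY-Tau22 males. The groups did not overlap, but rested on 3 to 12 and 14 to 56 UMIs. The log2 fold change was 2.03 ± 0.43 (SE; edgeR adjusted p = 0.0350, n = 3 each). In THY-Tau22 male 3, 1 cell held 37.5% of the Cxcl2 UMIs, and with at most 5 UMIs counted per cell and gene the log2 fold change was 1.70 (adjusted p = 0.0563). The call was also lost without WT male 1 (0.183), WT male 4 (0.220), THY-Tau22 male 3 (0.272) or THY-Tau22 female 2 (0.0539).

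Ccl4 had 1290.3, 1295 and 715 CPM in the WT males and 3113, 2390.2 and 3631 CPM in the THY-Tau22 males. The lowest THY-Tau22 value was thus well above the highest WT value, and the log2 fold change was 1.37 ± 0.32 (SE; edgeR adjusted p = 0.0427, n = 3 each). Its partner Ccl3 had 600.3, 653 and 384 CPM in WT and 1434, 1057 and 1738 CPM in THY-Tau22 males, and its log2 fold change of 1.27 ± 0.36 did not pass with edgeR (adjusted p = 0.0775), whereas DESeq2 called it (0.0294). After thinning, 27.7% of WT and 48.7% of THY-Tau22 microglia-like cells had a Ccl4 UMI (mean of 3 libraries each), with library ranges of 20.9% to 31.6% and 45.6% to 50.5%. The adjusted p of Ccl4 was above the threshold without any 1 of 5 male libraries (WT male 1, 2 or 4, THY-Tau22 male 1 or 3) or any 1 of 4 female libraries (WT female 1, THY-Tau22 female 2, 3 or 5), at 0.0513 to 0.272, with log2 fold changes of 1.11 to 1.52.

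Ccl2 had 55.5, 11.5 and 9.05 CPM in WT males and 98.8, 42.9 and 97.8 CPM in THY-Tau22 males, and the groups overlapped (log2 fold change 1.28 ± 0.55, edgeR adjusted p = 0.223). Cxcl16 had 15.0, 23.1 and 31.7 against 43.5, 55.2 and 53.6 CPM, without overlap and without a call (1.13 ± 0.48, adjusted p = 0.223). The interferon-induced Cxcl10 was at 27.1 to 76.8 CPM in WT and 33.7 to 142 CPM in THY-Tau22 males (0.55 ± 0.47, adjusted p = 0.57), the highest value being that of THY-Tau22 male 3 alone. Cxcl12, whose UMIs in this class were few, showed 0.25 ± 0.42 on the log2 scale (adjusted p = 0.795).

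In females, 0 of the 8 chemokines tested in microglia-like cells were called (0% of 5222 genes), and none had an unadjusted p under 0.05, by edgeR or by DESeq2. Over all genes, 156 had an unadjusted p under 0.05 with edgeR. The groups overlapped for all 10 members, where 1.07% of the genes tested had every THY-Tau22 female above every WT female. Ccl12 had 118, 165 and 33.1 CPM in WT females 1, 2 and 3 and 83.4, 90.2, 247, 239 and 116 CPM in THY-Tau22 females 1 to 5 (log2 fold change 0.67 ± 0.37). Ccl4 had 2401, 2597 and 694 CPM in WT and 1282 to 1970.4 CPM in THY-Tau22 females (-0.16 ± 0.28). WT female 3 was the lowest of all 14 libraries for Ccl4, Ccl3 (231 CPM) and Ccl12, and WT females 1 and 2 lay near the THY-Tau22 males for Ccl4.

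**Figure D2:**
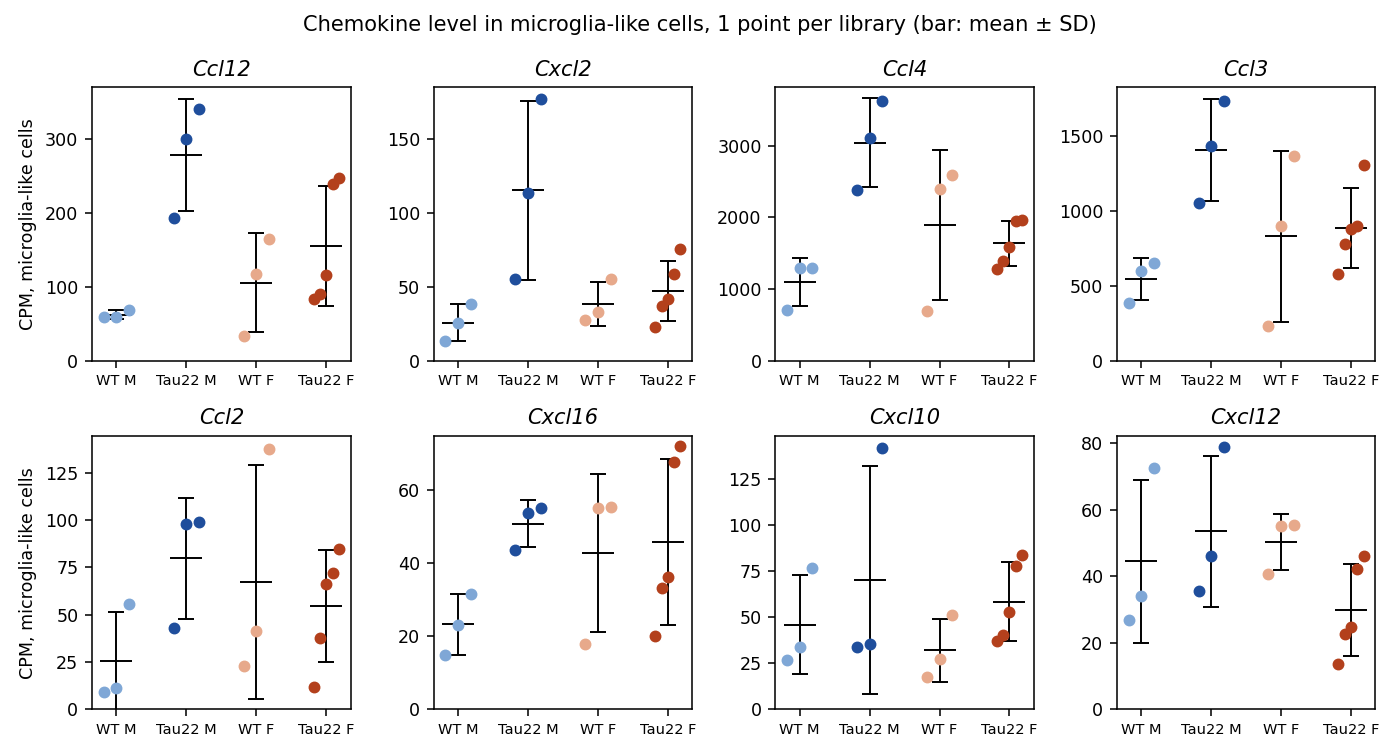
CPM of 8 chemokines in microglia-like cells, 1 point per library, with the mean and SD of each group (WT M and Tau22 M for the males, WT F and Tau22 F for the females). The 3 THY-Tau22 males lay above the 3 WT males for Ccl3, Ccl4, Ccl12, Cxcl2 and Cxcl16, and the female groups overlapped in every panel.

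Whether the genotype difference itself differed between the sexes was tested as male minus female. In microglia-like cells 0 of 8 chemokines were called (0% of 5222 genes), although 4 of 8 had an unadjusted p under 0.05, as had 740 of the 5222 genes. DESeq2 called Ccl4 among 36 genes and gave no adjusted p for 6 of the 8. The difference in log2 fold change was 1.53 ± 0.42 for Ccl4 (edgeR adjusted p = 0.159), 1.68 ± 0.62 for Cxcl2 (0.238), 1.38 ± 0.55 for Ccl12 (0.256) and 1.11 ± 0.47 for Ccl3 (0.283). Without WT female 3, 3 of the 8 chemokines were called. The share of all genes called in that fit is not given here, so whether this count is particular to chemokines cannot be said. As the average of both sexes, 0 of 8 were called where 0.0191% of genes (1 of 5222) were, with 6 of 8 at an unadjusted p under 0.05 (373 of all genes) and 1 called by DESeq2, Ccl12. Ccl12 stood nearest the threshold there (log2 fold change 1.36 ± 0.27, adjusted p = 0.0554).

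**Figure D3:**
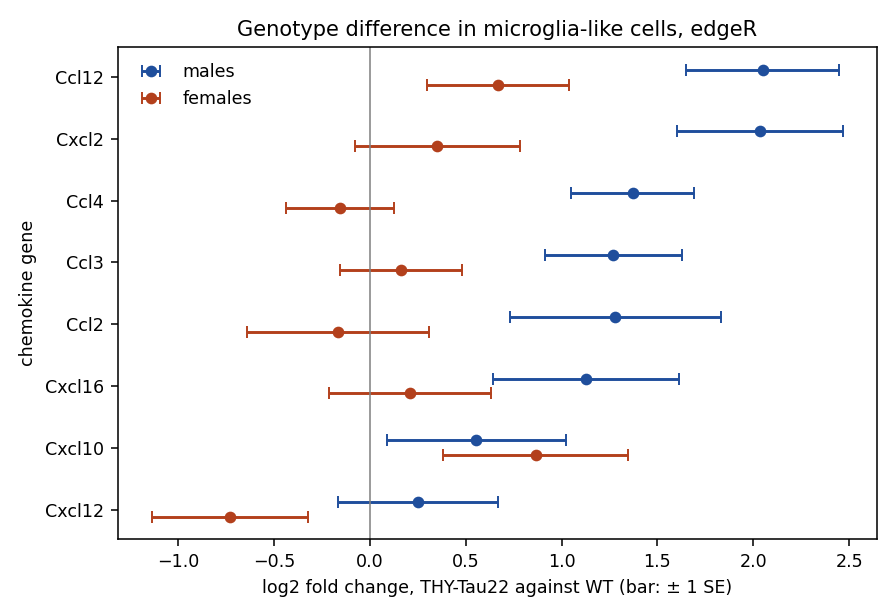
Log2 fold change of THY-Tau22 against WT (± 1 SE, edgeR) for the 8 chemokines tested in microglia-like cells, in males and in females. Male values lay above 0 for all 8, from 0.25 (Cxcl12) to 2.05 (Ccl12), and female values lay between -0.73 (Cxcl12) and 0.87 (Cxcl10).

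Other features of the same libraries moved with the chemokines. In male microglia-like cells the summed level of the 10 chemokines was 1312 to 2209 CPM in WT and 3944 to 6255 CPM in THY-Tau22. Cytosolic ribosomal protein mRNAs summed to 15800 to 19847 CPM in WT and 26126 to 35628 CPM in THY-Tau22 males, and mitochondrially encoded mRNAs to 3745 to 5563 and 8871 to 11513 CPM. Of the 32 genes called there, 6 were ribosomal protein genes or their pseudogenes and 4 mitochondrial mRNAs. WT female 3, lowest for the chemokines, was also lowest among the females for both sums. Median UMIs per microglia-like cell were 430 to 535 in WT males and 479 to 1049.5 in THY-Tau22 males. THY-Tau22 male 3, the deepest of them, also stood apart in composition, with 42.3% oligodendrocyte-like cells and 27.5% of its cells in 1 oligodendrocyte-like cluster (led by Gm10800 and Kif5a) that took 1.63% to 5.71% of the cells of each of the other 13 libraries. It had the highest male levels of Ccl3, Ccl4, Cxcl2 and Cxcl10 in microglia-like cells, and without it the log2 fold changes were 2.00 for Ccl12, 1.61 for Cxcl2, 1.24 for Ccl4, 1.10 for Ccl3 and -0.47 for Cxcl10, none of them called. The part of RNA quality or depth in the chemokine differences was not tested.

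Markers of other cell types were low in these cells. The 9 microglia markers summed to 12389 to 17077 CPM in WT and 14715 to 16122 CPM in THY-Tau22 males. The 8 macrophage markers, all of them detected, summed to 131 to 173 and 147 to 233 CPM, and their part was not tested. The T and NK markers summed to 3.84 to 25.6 and 12.3 to 88.3 CPM. Of 7 neutrophil markers, 5 were at 0.

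**Figure D4:**
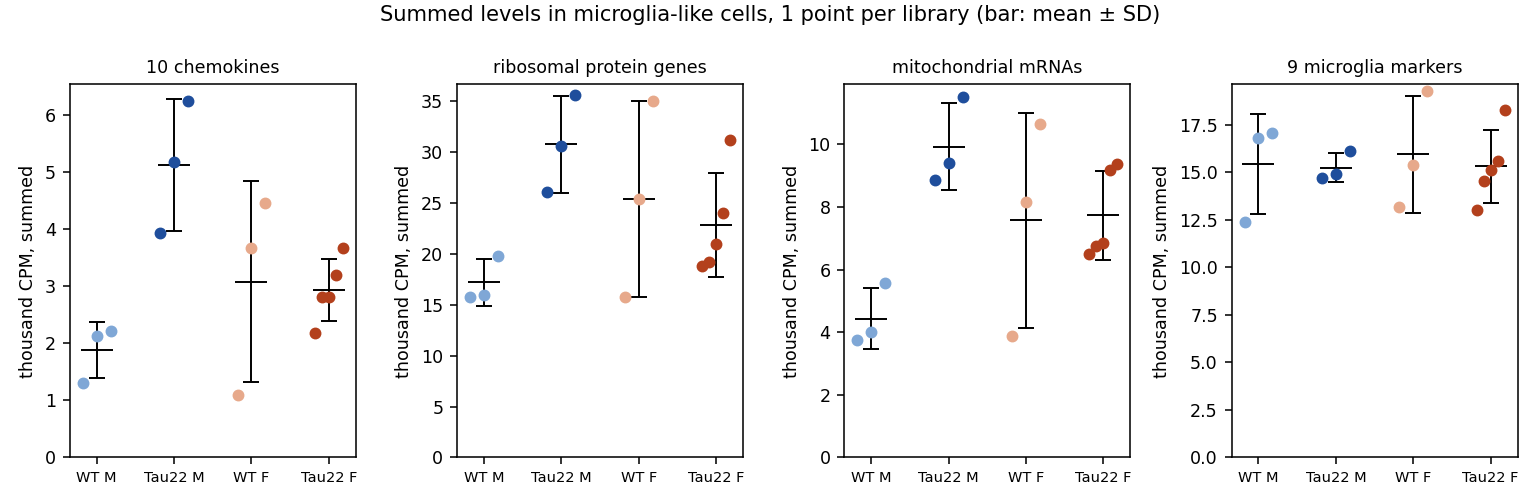
Summed level (CPM, axis in units of 1000) in microglia-like cells of the 10 chemokines, cytosolic ribosomal protein genes, mitochondrial mRNAs and 9 microglia markers, 1 point per library by group. The first 3 sums were higher in every THY-Tau22 male than in every WT male, and the marker sum overlapped.

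The genes of pathways tied to chemokine induction were counted in the same class. Of 15 NF-kB and early inflammatory genes, 13 were tested and 0 called in males (edgeR; 3 at an unadjusted p under 0.05, as were 897 of the 5222 genes tested), with a median log2 fold change of 0.16. Their summed level, which follows the most abundant genes of the list, was 6131 to 6201 CPM in WT and 8075 to 8750.1 CPM in THY-Tau22 males, without overlap. Nfkb1, which encodes an NF-kB subunit, had -0.66 (adjusted p = 0.209) and the adhesion receptor Vcam1 0.91 (0.223). Of 20 interferon-response genes, 6 were tested and 0 called in males (3 at an unadjusted p under 0.05), all 6 above 0 with a median of 0.76, among them Bst2 (1.10, adjusted p = 0.105) and Ifitm3 (2.60, 0.115). All 18 immediate early genes, which respond within minutes to stimulation and to tissue dissociation, were tested and 0 called in males (4 at an unadjusted p under 0.05), with 16 above 0 and a median of 0.37 in males, and 2 above 0 and a median of -0.29 in females. Ier2 was nearest (0.92, adjusted p = 0.0775). The interferon-response genes summed to 327 to 357 CPM in WT and 647 to 679 CPM in THY-Tau22 males. The immediate early genes summed to 29667 to 30566 and 35144 to 37904 CPM. These sums did not overlap either, so a separated sum was not particular to the NF-kB list.

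Disease-associated microglia genes, those induced around protein deposits, were tested for 9 of 16, and none was called in females (0% of 5222 genes). In males 2 were called higher, where 0.613% of the 5222 genes tested were called. They were the lectin receptor Clec7a (log2 fold change 2.02 ± 0.38, edgeR adjusted p = 0.0172) and Apoe (1.84 ± 0.43, 0.0427). The median of the 9 was 0.71 in males, beside 0.015 for all genes tested. The other chemokine ligands tested were Ccl9 (0.97 ± 0.37, adjusted p = 0.183) and Ccl6 (0.59 ± 0.29, 0.295), and neither was called. The fractalkine receptor Cx3cr1 had -0.60 ± 0.27 (adjusted p = 0.253) and the atypical receptor Ccrl2, which binds chemerin, 0.91 ± 0.30 (0.122).

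Over the 14 libraries, the microglia-like level of Ccl4 was most like that of Ccl3 (Pearson r = 0.938 of log2(CPM + 1), a description), and Ccl3 was most like Pmp22 (0.945) and then Ccl4. Ccl12 was most like Atp5j (0.926), Rpl26 (0.913) and Rps14 (0.907), the latter pair being ribosomal protein genes. Cxcl2 was most like Gadd45b (0.845), a stress-induced gene, Ccl2 most like Arpc4 (0.923), Cxcl16 most like Krtcap2 (0.906) and Cxcl10 most like Gabarap (0.766). These points share library depth and the ribosomal shift given above.

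In macrophage-like cells 7 of the 10 chemokines were tested among 392 genes, in 13 libraries with 10 to 48 such cells each (WT females were 1 and 3 only). None was called in either sex, in the average or in the male minus female difference (0% of genes each, edgeR), with 1 of 7 at an unadjusted p under 0.05 in males, 2 in females, 0 in the average and 1 in the difference, and 0 called by DESeq2. Ccl4 had 876, 2018 and 406 CPM in WT males 1, 2 and 4 and 1831, 2960 and 3357 CPM in THY-Tau22 males (log2 fold change 1.16 ± 0.51, adjusted p = 0.225). Ccl12, which was called in microglia-like cells, had 1689, 336 and 609 CPM in the WT males and 1148, 1015 and 1655 CPM in the THY-Tau22 males (0.23 ± 0.59). Cxcl2 (-0.45 ± 0.52) and Ccl7 (-0.72 ± 0.52) had fold changes below 0 that did not pass. In females Ccl12 was at 1667 and 1382 CPM in WT and 146 to 984 CPM in THY-Tau22, without overlap (-1.60 ± 0.59, adjusted p = 0.999). The share of the 392 genes that separated in this way was not counted, so whether this is particular to Ccl12 cannot be said. These cells made up 0.700% to 1.06% of cells in WT males and 1.87% to 2.95% in THY-Tau22 males, and 0.759% to 2.58% and 1.08% to 2.09% in WT and THY-Tau22 females.

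Summed over all cells, 10 of 10 chemokines were tested and 0 called in either sex, in the average or in the difference (0% of 11643 genes each, edgeR). In males 6 of 10 had an unadjusted p under 0.05, as had 1791 of the 11643 genes. DESeq2 called Ccl3 and Ccl4 among 74 genes in males, with no adjusted p for 7 of the 10. In females 1 of 10 chemokines and 203 genes had an unadjusted p under 0.05, and DESeq2 called 0. In males 7 of 10 had every THY-Tau22 library above every WT library (Ccl2, Ccl3, Ccl4, Ccl5, Ccl12, Cxcl2 and Cxcl16), where 22.4% of genes showed this. Ccl12 had a log2 fold change of 2.05 ± 0.41 (adjusted p = 0.130), Ccl2 1.72 ± 0.43 (0.197), Ccl4 1.40 ± 0.33 (0.197), Cxcl2 1.53 ± 0.41 (0.198) and Ccl3 1.32 ± 0.38 (0.227). In such sums, and in any bulk sample, fewer cells of a type and less RNA per cell cannot be told apart.

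Cxcl12 was the member whose all-cell level was lower in THY-Tau22 in both sexes. Over all cells it had 601, 669 and 758 CPM in WT males 1, 2 and 4 and 589, 591 and 510.01 CPM in THY-Tau22 males 1, 2 and 3. In females it had 775, 672 and 639 CPM in WT and 573, 464, 493, 630 and 462 CPM in THY-Tau22 females 1 to 5. The groups did not overlap in either sex, where 6.68% of genes in males and 0.507% in females had every THY-Tau22 library below every WT library, but neither difference passed (-0.44 ± 0.21, adjusted p = 0.325, and -0.39 ± 0.19, adjusted p = 1.000).

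Within endothelial-like cells Cxcl12 did not show that order. Endothelial-like levels were 2483, 3420 and 3243 CPM in WT males and 3280.0, 2900.4 and 3142 CPM in THY-Tau22 males, with means of 3049 ± 498 and 3108 ± 192 CPM (log2 fold change -0.12 ± 0.24, plus or minus 2 SE -0.61 to 0.36). In females they were 3362, 3008 and 3134 CPM in WT and 2309 to 3654 CPM in THY-Tau22 (-0.18 ± 0.22, -0.61 to 0.26). Mural-like log2 fold changes were 0.09 ± 0.31 in males and -0.39 ± 0.28 in females. The endothelial-like share of cells was 15.2% to 17.8% in WT and 9.76% to 14.0% in THY-Tau22 males, and 15.4% to 18.02% and 12.0% to 16.4% in WT and THY-Tau22 females. The part of that share in the all-cell level was not tested.

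**Figure D5:**
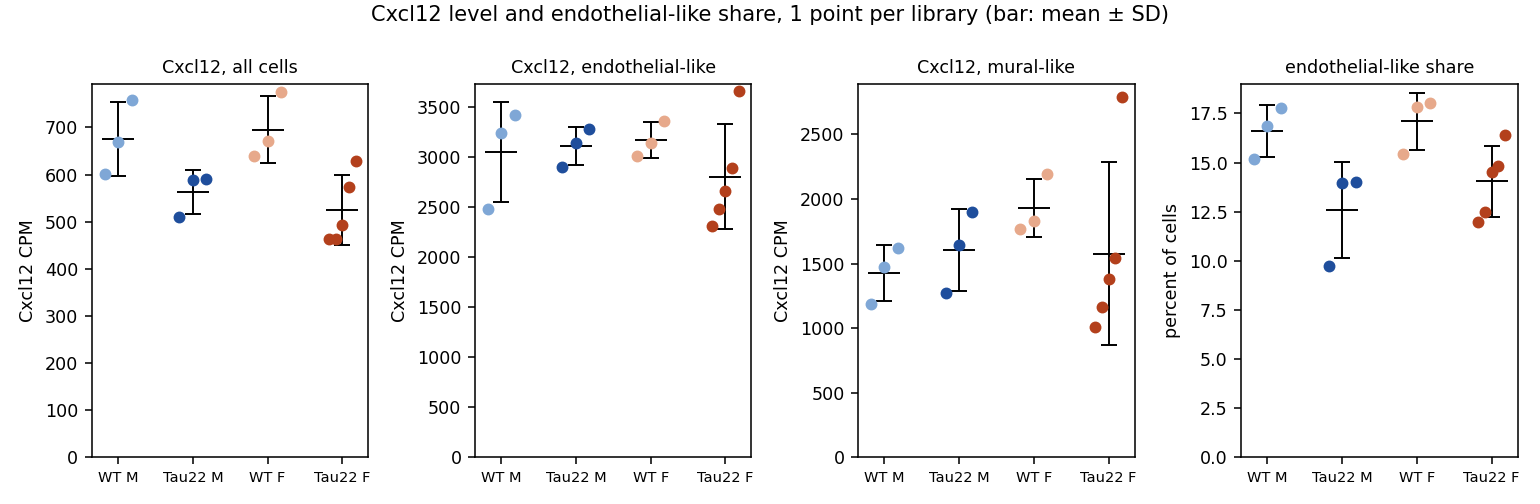
Cxcl12 CPM in all cells, endothelial-like cells and mural-like cells, and the endothelial-like share of cells (percent), 1 point per library by group with mean and SD. In all cells the highest THY-Tau22 male had 591 CPM and the lowest WT male 601 CPM, while endothelial-like levels overlapped in both sexes.

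In astrocyte-, endothelial-, mural- and oligodendrocyte-like cells 3, 2, 1 and 2 of the 10 chemokines passed the filter on low counts, and 0 were called in males, females, the average or the difference (edgeR). The genes called were 0% of 4126, 3844, 1410 and 4475 tested, apart from 3 genes (0.067%) in the difference in oligodendrocyte-like cells. In males 1 of the 3, 1 of the 2, 0 of the 1 and 1 of the 2 had an unadjusted p under 0.05, in females none did. DESeq2 called 0, but gave no adjusted p in males for the 3 in astrocyte-like and the 2 in oligodendrocyte-like cells, so no call could be made there, nor in the difference for the 3 in astrocyte-like cells and 1 in oligodendrocyte-like cells. The separation of Ccl4 between male genotypes appeared also in astrocyte-, endothelial-, OPC- and mural-like cells, but not in oligodendrocyte-, neuron- or macrophage-like cells. The share of all genes with such a separation was not counted in these classes (it was 15.9% in microglia-like cells). Whether the separation is particular to Ccl4 there can therefore not be said. The part of RNA from microglia in those levels was not tested.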

How the data were processed

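The authors deposited 16 Drop-seq tables of raw UMI counts per gene and cell barcode, 3000 barcodes each, aligned to mm10 and made with the standard Drop-seq pipeline, whose version is not given in the sources used here. The members and gene lists were chosen with earlier results of these data known. Cells with 200 to 7000 detected genes were kept (28530 of 48000 barcodes, 24578 of them in the 14 libraries compared), without a limit on mitochondrial mRNA. Cells of all tables were clustered together on 2500 variable genes, leaving out chemokine ligands, mitochondrial and sex-linked genes (19 principal components, 20 neighbours, Leiden resolution 0.5), and clusters were named from fixed markers. Scrublet-type scores marked 5.163% of cells as doublets, but 1 of 1393 cells in THY-Tau22 male 3, so doublets were kept and left out as an alternative. UMI counts were summed per library and class with at least 10 cells. Tests used edgeR 4.0.16 (TMM, filterByExpr, quasi-likelihood, 4 groups in 1 fit) in R 4.3.3, with Benjamini-Hochberg adjustment over all genes tested, and DESeq2 1.42.0 as an alternative, and were tested on simulated data. From other gene lists, the 2 genes with the smallest p were named where none was called, otherwise those called, and some receptors were named for the ligands they bind. Binomial intervals are exact at 95% and cover counting error only. Some receptor and profile results are not reported here.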

Additional observations from a re-analysis of the deposited data

Results flagged for a closer look

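Samples far from the rest of their group were sought only in groups of at least 4 libraries. These were 33 groups, all of the 5 THY-Tau22 females (1 group per chemokine and class tested). Chance picks out about 1 in 20 such groups, and 2 had a far sample. The WT male, THY-Tau22 male and WT female groups, with at most 3 libraries each, were too small to be screened. Both concerned Ccl5 in THY-Tau22 female 4, which had 56.9 CPM over all cells where the other THY-Tau22 females had 1.54 to 7.69, and 1893 CPM in macrophage-like cells where the others had 0 to 291. In that library 1 macrophage-like cell with 27 T or NK marker UMIs held 33 Ccl5 UMIs.

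The library deposited under both genotypes entered no comparison, and its genotype is unknown. The lower of its 2 tables had 812 CPM of Ccl3, 1695 CPM of Ccl4 and 97.2 CPM of Ccl12 in microglia-like cells, above the WT male ranges of 384 to 653, 715 to 1295 and 58.8 to 69.2 CPM. The higher of its tables had 832 CPM of Ccl3, 1834 CPM of Ccl4 and 122 CPM of Ccl12, below every THY-Tau22 male compared. Its Cxcl2 levels in microglia-like cells, 34.0 and 36.9 CPM, lay within the range of the WT males. Its lower Cxcl12 level in endothelial-like cells, 3521 CPM, was above the WT males' 2483 to 3420 CPM and also above every THY-Tau22 male compared.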

How the results depend on the processing

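The number of chemokines called in male microglia-like cells, 3, was 0 with all 16 libraries as labelled or with the shared library as a THY-Tau22 male, 1 with UMIs capped at 5 per cell and gene, and 0 to 4 without 1 library at a time. For the average of both sexes it was 0, but 1 with DESeq2, 2 without the low-count filter, 1 at Leiden resolution 1.0 and 0 to 1 without 1 library. For the male minus female difference it was 0, but 1 with DESeq2, 1 without the filter, 3 without the 2 libraries titled MB22 (THY-Tau22 female 5 and WT female 3), 1 in cells with at least 500 genes and 0 to 3 without 1 library. In all cells of males it was 0, but 2 with DESeq2 (74 of 11643 genes called), 5 without the filter, 5 without the MB22 libraries, 6 with 1 sex in the fit and 0 to 4 without 1 library. In the other 4 classes of males it was 0, but 1 without the filter, 1 with 1 sex in the fit and 0 to 1 without 1 library. Apart from DESeq2, the share of all genes called under these alternatives is given here only for male microglia-like cells. Whether the counts elsewhere are particular to chemokines can therefore not be said. The count of all genes called in male microglia-like cells, 32, was 107 with DESeq2, 98 without the filter, 0 with all 16 libraries, 109 and 1 with the shared library as a WT or THY-Tau22 male, 166 without the MB22 libraries, 349 with 1 sex in the fit, 8 with the cap, and 0 to 189 without 1 library. The causes were not tested.

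In male microglia-like cells Ccl12 was called in 21 of 27 alternatives (log2 fold change 1.45 to 2.32, highest edgeR adjusted p 0.245), Cxcl2 in 18 of the 26 that gave an adjusted p (1.57 to 2.31, 0.272), Ccl4 in 15 of 27 (0.93 to 1.66, 0.272) and Ccl3 in 6 of 27 (0.93 to 1.51, 0.353). No alternative turned the direction of these 4.

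The direction turned for values that had not been called. In female microglia-like cells the log2 fold change became -0.14 for Ccl3 and -0.0927 for Cxcl16 without the MB22 libraries, 0.00499 for Ccl4 with the cap and -0.15 for Cxcl2 in cells with at least 500 genes. Without 1 library it ranged from -0.65 to 0.93 for Ccl2, -0.28 to 0.71 for Ccl3, -0.53 to 0.10 for Ccl4 and -0.23 to 0.50 for Cxcl16 in females, and from -0.47 to 1.03 for Cxcl10 and -0.13 to 0.65 for Cxcl12 in males. Cxcl12 became 0.0477 in male endothelial-like cells with at least 500 genes, and -0.0759 in male mural-like cells with the shared library as THY-Tau22 (-0.0445 to 0.19 without 1 library). In male macrophage-like cells Ccl3 became -0.00392 with the cap, Ccl12 -0.00852 with the shared library as THY-Tau22 and Cxcl2 0.29 without the filter, and without 1 library Ccl3 ranged from -0.24 to 1.10 and Ccl12 from -0.28 to 1.61. All-cell Cxcl10 in males ranged from -0.0642 to 0.84 without 1 library. The median endothelial-like Cxcl12 level was 2632 CPM in cells with at least 500 genes.

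No paired analysis was possible because the groups compared within a sex share no animal-style number in their titles. The only such number that recurs is in the titles of WT male 1 and THY-Tau22 female 1, which are not compared with each other, and what it marks is not stated. The fit for macrophage-like cells, with 2 WT female libraries, was chosen after seeing the data. With 3 libraries in most groups and 3 to 56 Cxcl2 UMIs per male library, differences in the sparser members were not detectable at this depth unless large.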
